A study of Mus musculus with 4 samples.

Results

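The genes described here take part in the fusion of macrophages into multinucleated giant cells under IL-4. They are Cdh1, Trem2, Tyrobp, Cd9, Cd81, Cd44 and Sirpa, which were listed by name, and the DC-STAMP gene, which was added where the array held it under either of its symbols. All non-control probes with one of these gene names were taken, which gave 8 genes with 11 probes, out of 23660 gene symbols and 55681 non-control probes on the array. DC-STAMP is listed there under its older symbol Tm7sf4. Of the 8 genes, 7 had 1 probe and Cd44 had 4.

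Bone marrow-derived macrophages (BMDMs) came from C57BL/6J mice aged 10 weeks. In all groups the marrow was cultured for 6 days with the supernatant of L929 cells, a source of M-CSF, and then stimulated for 2 days. M1 BMDMs were wild type and received IFN-γ at 20 ng/ml and LPS at 100 ng/ml. M2 BMDMs were wild type and received IL-4 at 50 ng/ml. Lamtor1-deficient M2 BMDMs, labelled p18 (2400001E08Rik) -/-, received the same IL-4. Torin1-treated M2 BMDMs were wild type and received the same IL-4 with Torin1, an inhibitor of the kinase mTOR, at 250 nM. By the study's methods, the deficient mice carried floxed Lamtor1 alleles and LysM-Cre, which acts in myeloid cells. Each group was 1 array of 1 culture, so no difference between groups has a replicate check and no test was possible.

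IL-4 drives macrophages to adhere to one another and to merge their membranes. The surface proteins involved include the seven-pass membrane protein DC-STAMP, the adhesion molecule E-cadherin, the receptor TREM2 with its signalling adaptor DAP12, tetraspanins that organise the membrane at contact sites, the hyaluronan receptor CD44, and SIRPα, which binds CD47 on the neighbouring cell. Lamtor1 is a subunit of the Ragulator, which anchors the kinase complex mTORC1 at the lysosome.

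The probe sequences below are printed for the genes in which the position of the probe matters to the reading of its signal. The probe of Tyrobp, the gene of DAP12, lies on the plus strand of chromosome 7 (mm9, chr7:31200651-31202378) and its ends are further apart than its length, so it spans an exon junction. Capitals mark the codons from the tyrosine to the leucine that open the immunoreceptor tyrosine-based activation motif, through which DAP12 signals.
Tyrobp probe: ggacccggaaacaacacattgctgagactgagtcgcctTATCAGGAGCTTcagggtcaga
The Cd44 probes lie on the minus strand of chromosome 2. One of them (mm9, chr2:102654278-102654337) reads through the stop codon, in capitals, and is shown up to it. It is called the stop-codon probe from here on.
Cd44 stop-codon probe: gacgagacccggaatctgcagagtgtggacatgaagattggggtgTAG
Another pair lies 18367 bases (mm9, chr2:102672645-102672704) and 23693 bases (mm9, chr2:102677971-102678030) upstream of it in the genome. No annotation of mm9 was used, so their exons are not named here.
Cd44 probe 18367 bases upstream: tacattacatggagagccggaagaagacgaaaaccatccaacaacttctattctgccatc
Cd44 probe 23693 bases upstream: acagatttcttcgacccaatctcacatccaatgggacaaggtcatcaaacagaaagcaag
The remaining Cd44 probe (mm9, chr2:102651398-102651457) lies 2880 bases downstream of the stop-codon probe.

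Each value is the processed signal of the scanner software, an intensity after background subtraction. Signals were divided by the 75th percentile of their array, which lay between 287 (M1) and 595 (M2), and ratios to the M2 array are given on the log2 scale. Between 50.9% and 55.4% of probes per array were well above background by the software's own call, 0 spots were saturated, and the lowest signal called well above background ranged from 15.7 to 21.6. Probes with at least 8 spots gave the technical SD of a log2 ratio to M2, which was 0.098 in M1, 0.090 in Lamtor1-deficient and 0.093 in Torin1-treated M2 BMDMs. It was 0.37 to 0.50 for probes too dim on either array. Such an SD covers repeat spots only, and the variation between cultures is unknown. The targeted gene Lamtor1 had a signal of 39460 in M2 and 833 in Lamtor1-deficient M2 BMDMs, with 2.34% of the normalized signal left. The macrophage markers were well above background on all 4 arrays (7 of 7), but 3 of the 7 were at least 2-fold lower than in M2 BMDMs without Lamtor1 and 2 with Torin1, against 10.5% and 15.2% of all genes well above background. Emr1, for F4/80, was 5.95-fold and 7.02-fold lower, Fcgr1, an Fc receptor, 31.1-fold and 24.4-fold lower, and Cd14 3.62-fold lower without Lamtor1. Cd68 was 1.47-fold and 1.63-fold and Mertk 1.27-fold and 1.86-fold higher, inside 2-fold. Csf1r and Itgam were inside 2-fold after both treatments by their brightest probe and more than 2-fold lower by each of their other probes. In M1 BMDMs Fcgr1 was 5.62-fold higher, and Csf1r (2.36-fold) and Emr1 (2.05-fold) were lower. Their part in the levels of the fusion genes was not tested. Fewer cells of a type and less RNA per cell cannot be told apart in such samples.

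Of the 8 fusion genes, DC-STAMP differed most from M2 BMDMs after both treatments. It was 9.44-fold lower in Lamtor1-deficient and 20.2-fold lower in Torin1-treated M2 BMDMs than in M2 BMDMs, and Cdh1, the other gene past 2-fold without Lamtor1, was 5.41-fold and 1.94-fold lower. Trem2, Tyrobp and Sirpa lay within 2-fold of M2 BMDMs after both treatments. Cd9 was 1.82-fold and 2.08-fold higher, whereas Cd81, its close relative, was 1.52-fold and 2.95-fold lower. In M1 BMDMs, DC-STAMP, Trem2, Cd9 and Cdh1 were all more than 2-fold lower than in M2 BMDMs, of which Cdh1 was not with the normexp background correction.

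**Figure D1:**
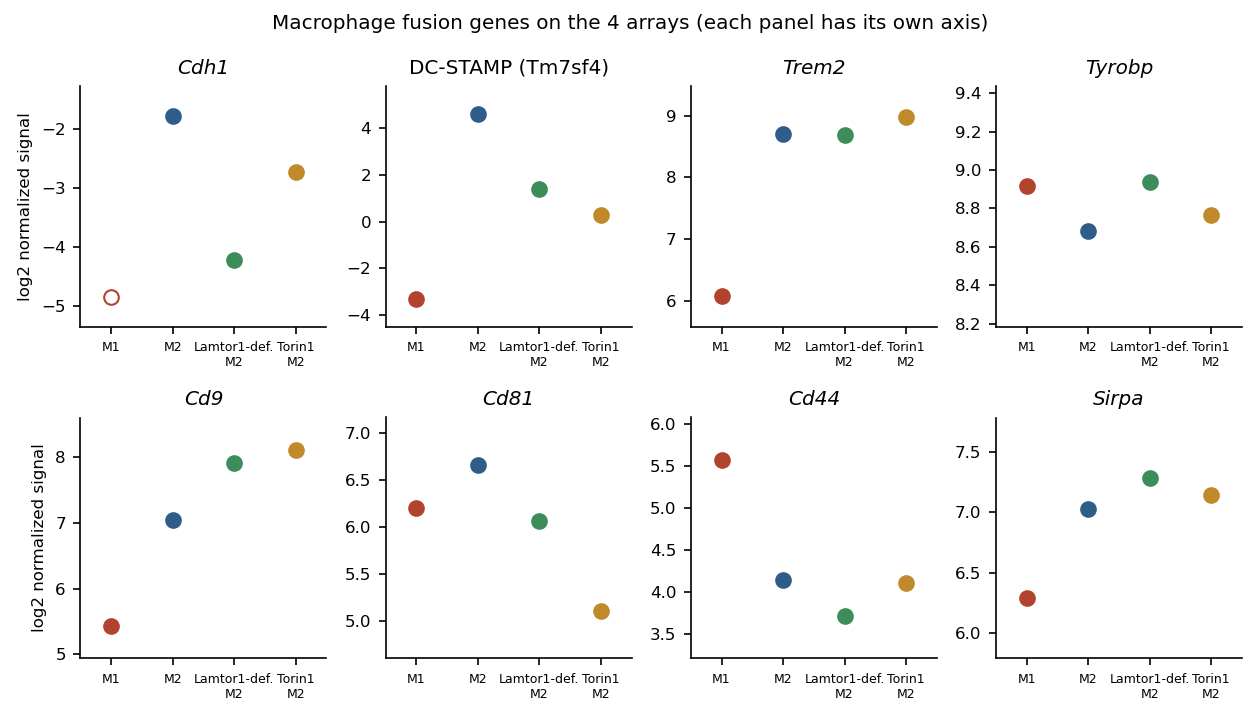
Log2 of the normalized signal (signal over the 75th percentile of its array) of the 8 fusion genes on the 4 arrays, with 1 point per array, the brightest probe of each gene and a separate vertical axis for each gene. Open points are not well above background. The points of DC-STAMP span from -3.32 in M1 to 4.62 in M2 BMDMs, while those of Tyrobp stay between 8.68 and 8.94.

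Counted over the 8 genes, 2 were at least 2-fold lower and 0 at least 2-fold higher in Lamtor1-deficient M2 BMDMs, against 8.74% lower and 8.88% higher of all genes. Among genes well above background on at least 1 of both arrays, these shares were 10.5% and 10.5%. The median log2 ratio of the 8 genes was -0.22, and that of all genes was 0.04, or 0.08 for those well above background. In Torin1-treated M2 BMDMs, 2 of the 8 were lower (DC-STAMP and Cd81) and 1 was higher (Cd9), against 11.7% and 14.3% of all genes, or 15.2% and 15.1% of those well above background. The medians were 0.02 for the 8 genes, -0.05 for all genes and 0.05 for those well above background.

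In M1 BMDMs, 4 of the 8 were lower and 1, Cd44, was higher, against 19.2% and 30.7% of all genes, or 27.7% and 28.5% of those well above background. The call of Cd44 was set by the choice of its probe, since another bright probe was 14.5-fold lower. The medians were -1.18 for the 8 genes, 0.75 for all genes and 0.09 for those well above background. This comparison also depended on the scaling. With each array shifted to its median in place of its 75th percentile, the median of all genes was -0.07 in M1 BMDMs, 7498 genes were lower and 3691 higher in place of 4539 and 7260, and 6 fusion genes were lower and 0 higher. The same shift gave 3 lower and 0 higher fusion genes in Torin1-treated M2 BMDMs, with 3702 genes lower and 2368 higher in place of 2775 and 3390. All 3 comparisons share the M2 array, so any deviation of that array enters each of them. These counts are descriptions of 4 arrays.

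**Figure D2:**
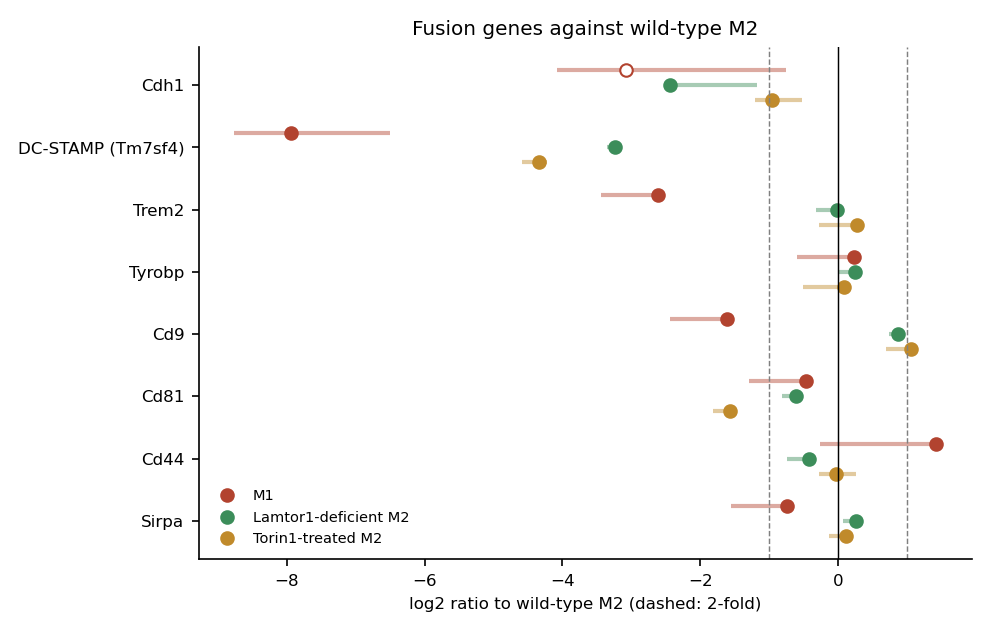
Log2 ratio of the normalized signal of each fusion gene to M2 BMDMs in M1, Lamtor1-deficient M2 and Torin1-treated M2 BMDMs, with 1 array per group. Points give the main setting, bars the lowest and highest value over the alternative settings, and the open point a signal not well above background. The bars of DC-STAMP lie beyond 2-fold in all 3 comparisons, and that of Cd44 in M1 BMDMs crosses 0.

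DC-STAMP (probe A_55_P2005320; mm9, chr15:39592421-39592480, plus strand) is required for the fusion of both osteoclasts and foreign-body giant cells. Its processed signal was 14618 in M2 BMDMs, 1395 in Lamtor1-deficient M2 BMDMs, 573 in Torin1-treated M2 BMDMs and 28.6 in M1 BMDMs, well above background on all 4 arrays. The order of the arrays had no neighbours closer than 2 technical SD. Normalized, 10.6% of the M2 signal was left without Lamtor1 and 4.96% with Torin1, log2 ratios of -3.24 and -4.33. In M1 BMDMs 0.406% was left, a 246-fold lower level, from a signal close to the limit of detection, and over the alternative settings the log2 ratio there ranged from -8.76 to -6.50. Comparing the other arrays with each other, without the M2 array, DC-STAMP was 26.0-fold higher in Lamtor1-deficient M2 and 12.2-fold higher in Torin1-treated M2 BMDMs than in M1 BMDMs. Over the alternative settings the ratio stayed between -3.35 and -3.17 for Lamtor1 loss and between -4.58 and -4.23 for Torin1.

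Ocstamp, the osteoclast stimulatory transmembrane protein, which resembles DC-STAMP and is listed on the array as 4833422F24Rik, had signals of 402 in M1, 14583 in M2, 936 in Lamtor1-deficient M2 and 181 in Torin1-treated M2 BMDMs. Its log2 ratios to M2 were -4.13, -3.81 and -5.99. As for DC-STAMP, the M2 array was the highest and Torin1-treated M2 lay below Lamtor1-deficient M2, but for Ocstamp the M1 array did not have the lowest level. Mmp9, a secreted gelatinase used by fusing cells, had signals of 769 in M2, 32.8 in Lamtor1-deficient M2 and 21.2 in Torin1-treated M2 BMDMs and was not well above background in M1 BMDMs. Its log2 ratios were -4.40 without Lamtor1 and -4.84 with Torin1, or -2.92 and -2.99 with the normexp correction, at signals near background.

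Neutrophil markers moved with these genes. All 5 markers found on the array of the 7 listed (Ngp, Camp, Ltf, Mpo and S100a8) were more than 2-fold lower than in M2 BMDMs in each comparison, against 27.7% of all genes well above background in M1, 10.5% in Lamtor1-deficient M2 and 15.2% in Torin1-treated M2 BMDMs. The summed normalized level of the list was 25.2 in M2 BMDMs against 3.03 in M1, 3.85 in Lamtor1-deficient M2 and 3.47 in Torin1-treated M2 BMDMs. Ltf, for lactoferrin, had a signal of 2996 in M2 BMDMs and of 73.1 and 24.6 without Lamtor1 and with Torin1. The part of such cells in the levels of DC-STAMP, Ocstamp, Mmp9 and Cdh1 was not tested. The summed level of 7 fibroblast markers followed another pattern, with 16.2 in M1, 43.5 in M2, 56.7 in Lamtor1-deficient M2 and 15.5 in Torin1-treated M2 BMDMs. Col1a2 alone gave 30.9 of the sum in M2 BMDMs, and the markers did not all move together. In M1 BMDMs 5 of the 7 were lower and 1, Dcn, was 5.86-fold higher, against 27.7% and 28.5% of all genes well above background.

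Cdh1 encodes E-cadherin, which joins cells by binding E-cadherin on the neighbour and is induced by IL-4 in macrophages. Its probe (A_51_P137336; mm9, chr8:109193812-109193871, plus strand) was spotted 10 times on each array, so it has a spread of its own. The mean signal was 174 in M2 BMDMs (spots from 158 to 186, all 10 well above background). In Torin1-treated M2 BMDMs it was 70.8 (58.4 to 89.7, all 10). In Lamtor1-deficient M2 BMDMs it was 28.9 (20.1 to 37.8, 8 of 10 well above background), and in M1 BMDMs it was 9.92 (4.64 to 15.6, 0 of 10). The ranges of the spots did not overlap between any pair of the 3 M2 arrays, on the raw or the normalized scale.

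**Figure D3:**
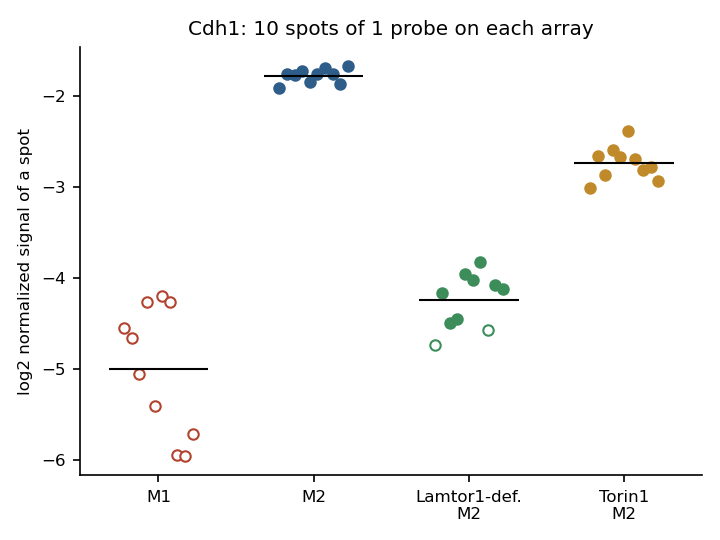
Log2 of the normalized signal of the 10 spots of the Cdh1 probe on each of the 4 arrays, with lines at the mean of the spots and open points for spots not well above background. Spots of 1 array are repeat measurements of the same RNA. The spots of M2 lie between -1.91 and -1.68, those of Torin1-treated M2 between -3.01 and -2.39, and those of Lamtor1-deficient M2 BMDMs between -4.73 and -3.83.

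The log2 ratio of Cdh1 was -2.44 (SD over spots 0.31, 10 spots per array) without Lamtor1 and -0.95 (SD 0.20) with Torin1. The first is a 5.41-fold and the second a 1.94-fold lower level, just inside the 2-fold limit. In M1 BMDMs Cdh1 was at least 4.45-fold lower, but inside 2-fold (-0.76) with the normexp correction. Cdh1 without Lamtor1 stood at 35.8% of its level with Torin1, whereas DC-STAMP stood at 214% of it. The signal of Cdh1 without Lamtor1 was close to the lowest one called well above background, and the size of the difference varied with the background correction. Over the alternative settings the log2 ratio ranged from -2.50 to -1.17 for Lamtor1 loss and from -1.20 to -0.52 for Torin1, the smaller values coming from the normexp correction with an offset.

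The catenins link cadherins to actin. Ctnnb1, for β-catenin, had signals of 5638 in M1, 14545 in M2, 33692 in Lamtor1-deficient M2 and 28989 in Torin1-treated M2 BMDMs. It was higher on the log2 scale by 1.36 without Lamtor1 and by 1.33 with Torin1, where Cdh1 was at -2.44 and -0.95. Ctnna1 and Ctnnd1, for α-catenin and p120-catenin, lay within 2-fold after both treatments (-0.18 and 0.27, and -0.50 and -0.49) and were lower in M1 BMDMs (-1.93 and -1.39). Of 12 genes of the cadherin and catenin list, 0 were lower and 2 higher without Lamtor1 among the 11 well above background, against 10.5% of all such genes in each direction, or 0 and 1 with quantile normalization or normexp, which called 983 of all genes lower and 1086 higher in place of 2069 and 2101. With Torin1, 1 was lower and 2 higher, against 15.2% and 15.1%. The one lower with Torin1 was Snai2, a repressor of E-cadherin, with a log2 ratio of -1.93 and one of 0.48 without Lamtor1. The 2 higher with Torin1 were Ctnnb1 and Jup, another catenin, which was dim in M2 BMDMs and at least 7.51-fold higher. Without Lamtor1 the 2 were Ctnnb1 and Twist1 (1.04), which was dim in M2 BMDMs. In M1 BMDMs 4 were lower and 2 higher, against 27.7% and 28.5%, or 8 lower and 1 higher after the shift to the median.

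Epithelial cells are the best-known source of E-cadherin. Of 6 epithelial markers, Epcam, Krt8 and Krt18 were not well above background on any array. The other 3 (Krt19, Cldn4 and Krt5) were so in M2 BMDMs, and Krt19 gave 78.0 in M2, 127 in Lamtor1-deficient M2 and 28.9 in Torin1-treated M2 BMDMs and was dim in M1 BMDMs. Krt5 gave 43.5 in M1, 59.7 in M2, 59.8 in Lamtor1-deficient M2 and 67.5 in Torin1-treated M2 BMDMs. Cldn4 gave 27.0 in M1 and 26.0 in M2 BMDMs, 2.15-fold higher in M1 after scaling, and was dim on the other arrays. The summed level of the list was 0.328 in M2, 0.424 in Lamtor1-deficient M2, 0.309 in Torin1-treated M2 and 0.445 in M1 BMDMs. Langerhans cells also carry E-cadherin, and their marker Cd207 was not well above background on any array. The summed level of 6 dendritic and Langerhans cell markers was 0.183 in M2, 0.132 in Lamtor1-deficient M2, 0.293 in Torin1-treated M2 and 1.11 in M1 BMDMs. The part of such cells in the level of Cdh1 was not tested.

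Trem2 encodes a receptor for lipids that signals through DAP12. Its probe (A_55_P1962937; mm9, chr17:48491537-48491596, plus strand) gave 247980 in M2, 221996 in Lamtor1-deficient M2, 237052 in Torin1-treated M2 and 19474 in M1 BMDMs. The 3 M2 arrays thus lay within 2-fold of one another and the M1 array stood apart. The log2 ratios were -0.01 without Lamtor1, less than 2 technical SD from M2, and 0.27 with Torin1. Over the alternative settings they ranged from -0.32 to 0.05 and from -0.28 to 0.36. In M1 BMDMs Trem2 was 6.14-fold lower than in M2 BMDMs, and 6.10-fold and 7.43-fold lower than in the other M2 arrays.

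Tyrobp (probe A_51_P261517, shown above) gave 138366 in M1, 244576 in M2, 262900 in Lamtor1-deficient M2 and 204565 in Torin1-treated M2 BMDMs. After scaling, the log2 ratios were 0.23, 0.25 and 0.08, and no neighbours in the order of the 4 arrays were further apart than 2 technical SD. Compared directly with M2, however, M1 and Lamtor1-deficient M2 BMDMs were each more than 2 technical SD higher (SD 0.098 and 0.090). The ratio of M1 to M2 was -0.59 after the shift to the median, so its sign depended on the scaling. The other ratios also changed sign, with lowest values over the alternative settings of -0.006 without Lamtor1 and -0.51 with Torin1. The adaptor thus lay within 2-fold on every array while its receptor Trem2 did not in M1 BMDMs.

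Of 13 genes of DAP12 signalling, 12 were found on the array. Among those well above background, 1 of 11 was lower and 1 higher without Lamtor1 (1 and 0 with normexp, 2 and 1 with the percentile over probes well above background), and 1 of 10 was lower and 1 higher with Torin1 (1 and 0 after the shift to the median). The shares of all such genes were 10.5% in each direction without Lamtor1, and 15.2% lower and 15.1% higher with Torin1. Trem1, another receptor that uses DAP12, was lower without Lamtor1 (-1.10) and had a ratio of -0.04 with Torin1. Inpp5d, for the lipid phosphatase SHIP1, was lower with Torin1 (-1.23), and Hcst, for the related adaptor DAP10, was higher (1.08; 0.83 after the shift to the median). In M1 BMDMs 3 of 11 were lower, Trem1 among them at -2.60, and 2 were higher, against 27.7% and 28.5% of all such genes, or 5 and 1 after the shift to the median.

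Cd9 and Cd81 encode a pair of closely related tetraspanins, and mice that lack both form multinucleated giant cells spontaneously. Cd9 (probe A_51_P320852; mm9, chr6:125410387-125410446, minus strand) gave 12420 in M1, 78860 in M2, 129489 in Lamtor1-deficient M2 and 129844 in Torin1-treated M2 BMDMs. It was 3.06-fold lower in M1 BMDMs. Its log2 ratio was 0.87 without Lamtor1, inside 2-fold, and 1.06 with Torin1, just outside it. Over the alternative settings the latter ranged from 0.70 to 1.14.

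Cd81 (probe A_51_P223443; mm9, chr7:150253737-150253796, plus strand) gave 21139 in M1, 60451 in M2, 35888 in Lamtor1-deficient M2 and 16196 in Torin1-treated M2 BMDMs. The log2 ratios were -0.46, -0.60 and -1.56. The last, a 2.95-fold lower level, was past 2-fold in every setting but short of 3-fold in the main one. M1 and Lamtor1-deficient M2 BMDMs differed by less than 2 technical SD in the main scaling. After the shift to the median they stood at -1.28 and -0.54, with M1 BMDMs past 2-fold. Of the 3 M2 arrays, Cd81 was lowest with Torin1. Whether Cd9 was higher with Torin1 or without Lamtor1 depended on the scaling, since the log2 ratios were 0.81 and 0.93 after the shift to the median and 0.70 and 0.73 with quantile normalization.

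Of 12 other tetraspanins and their partners, 8 lay within 2-fold after each treatment in the main setting. Of this list, 2 were lower and 2 higher without Lamtor1 (2 and 1 with quantile normalization), and 2 and 2 with Torin1, or 16.7% each, against 10.5% and 10.5% of all genes well above background without Lamtor1 and 15.2% and 15.1% with Torin1. Cd82 was higher after both (2.40 and 2.08), with signals of 11304 in M2, 53738 without Lamtor1 and 37704 with Torin1. Tspan33 was lower, with signals of 1245 in M2 and 37.1 without Lamtor1 (-4.92, or -3.49 with normexp), and it was not well above background with Torin1. Tspan3 was lower after both (-1.47 and -2.49). Igsf8, an immunoglobulin-like partner of CD9 and CD81, had log2 ratios of 0.88 and 1.32, while Ptgfrn, another such partner, had 0.12 and -0.41. In M1 BMDMs 3 were lower and 4 higher, against 27.7% and 28.5%, or 5 and 1 after the shift to the median.

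Cd44 differed by probe. The stop-codon probe (A_55_P2166501), which stands for the gene in the counts because its mean normalized log2 signal over the 4 arrays was the highest, gave 13655 in M1, 10517 in M2, 7048 in Lamtor1-deficient M2 and 8119 in Torin1-treated M2 BMDMs. The log2 ratios were 1.43, -0.43 and -0.03, so by this probe Cd44 was 2.69-fold higher in M1 BMDMs and within 2-fold otherwise. The probe 2880 bases downstream (A_55_P2064043) gave 641, 19248, 16072 and 12034 in the same order, with log2 ratios of -3.86, -0.11 and -0.34. By that probe Cd44 was 14.5-fold lower in M1 BMDMs, opposite to the stop-codon probe, while among the 3 M2 arrays both probes lay within 2-fold. On the 3 M2 arrays the downstream probe had the higher signal, so the choice of the stop-codon probe rested on the M1 array.

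The probe 23693 bases upstream (A_55_P2166488) gave 76.3 in M1, 105 in M2, 41.7 in Lamtor1-deficient M2 and 120 in Torin1-treated M2 BMDMs. Its log2 ratios were 0.60, -1.18 and 0.54. The probe 18367 bases upstream (A_55_P2166486) gave 44.6, 53.6, 20.3 and 78.3, and its level without Lamtor1, not well above background, was at least 2.38-fold lower than in M2 BMDMs. It had log2 ratios of 0.79 in M1 and 0.89 in Torin1-treated M2 BMDMs. Both upstream probes were thus more than 2-fold lower without Lamtor1 and not with Torin1, at signals near the background, where the technical spread is wide. CD44 transcripts are spliced to include or skip a block of variable exons, and whether these probes lie in them was not determined.

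**Figure D4:**
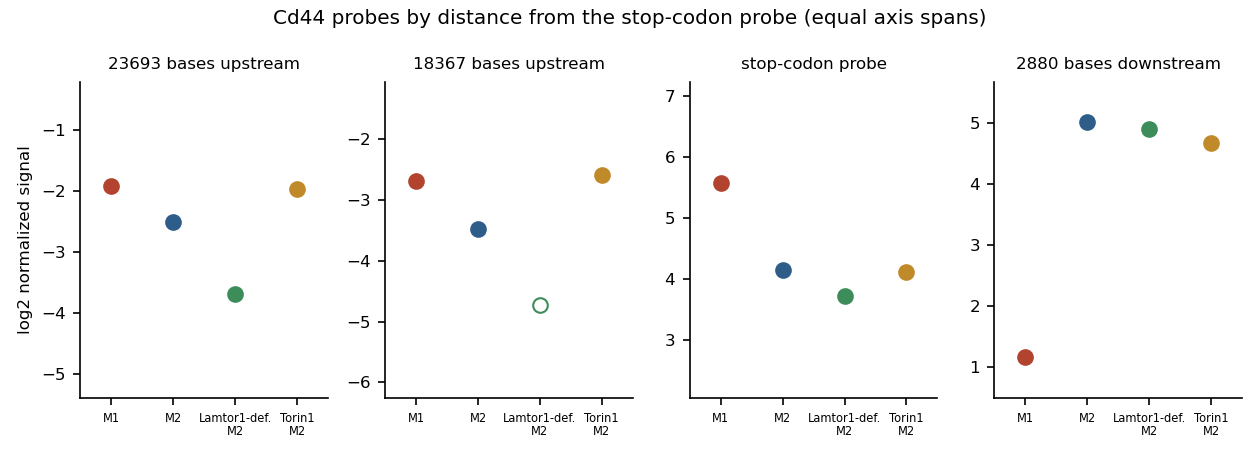
Log2 of the normalized signal of the 4 Cd44 probes on the 4 arrays, in order along the transcript, each panel with its own position on the vertical axis and the same span. The open point is not well above background. The stop-codon probe is highest in M1 BMDMs (5.57), and the probe 2880 bases downstream is lowest there (1.16).

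Sirpa encodes SIRPα, an inhibitory receptor of myeloid cells whose ligand is CD47. Its probe (A_55_P2118037; mm9, chr2:129457873-129457932, plus strand) gave 22421 in M1, 77541 in M2, 83736 in Lamtor1-deficient M2 and 66554 in Torin1-treated M2 BMDMs. The log2 ratios were -0.74, 0.26 and 0.12. The Torin1-treated array was less than 2 technical SD from each of the other M2 arrays, and the level in M1 BMDMs was below all of them. After the shift to the median, M1 BMDMs were more than 2-fold lower (-1.56).

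Cd47, the ligand, gave 40840 in M1, 41168 in M2, 32502 in Lamtor1-deficient M2 and 19524 in Torin1-treated M2 BMDMs, with log2 ratios of 1.04, -0.19 and -0.74. The ratio in M1 BMDMs was 0.22 after the shift to the median. Of 7 genes of the SIRPα and CD47 list, 2 were lower and 0 higher both without Lamtor1 and with Torin1 (3 and 0 with Torin1 after the shift to the median), against 10.5% and 15.2% lower of all genes well above background. They were Sirpb1a, an activating relative of SIRPα that pairs with DAP12 (-2.26 and -1.80), and Fyb, a cytoplasmic adaptor (-2.02 and -2.58). Both were higher in M1 BMDMs (2.40 and 2.55), where 4 of the 7 were higher and 2 lower, against 28.5% and 27.7%, or 3 and 3 after the shift to the median.

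Beyond the 8 genes, 26 other genes of macrophage fusion were listed and all 26 were on the array. Without Lamtor1, 6 of the 25 well above background were lower and 3 higher, against 10.5% of all such genes in each direction, with a median log2 ratio of -0.27 against 0.08 for all genes well above background. The 6 were Ocstamp, Mmp9, Adam8, Msr1, P2rx7 and Mrc1. With Torin1, 10 of 26 were lower and 1 higher, against 15.2% and 15.1%, and the median was -0.72 against 0.05. The lower genes included Ocstamp, Mmp9, Adam8, Icam1, Mrc1 and Adam9.

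Of the surface proteins, Mrc1, the mannose receptor, gave 75196 in M2, 25334 without Lamtor1 and 9507 with Torin1 (-1.42 and -2.64). Adam8, a membrane metalloprotease, gave 176298, 35803 and 20704 (-2.15 and -2.75). Msr1, a scavenger receptor, gave 5565, 1228 and 1323 (-2.03 and -1.73). All 3 were more than 2-fold lower after both treatments.

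Other members of the list went the opposite way or stayed. Cd200, a ligand that appears on fusing macrophages, was higher after both treatments (4.75 and 6.05), with a signal of 131 in M2, 3167 without Lamtor1 and 6824 with Torin1, and it was also higher in M1 BMDMs (6.63). Atp6v0d2, a proton pump subunit needed for fusion alongside DC-STAMP in osteoclasts, had log2 ratios of 0.99 and 0.96, which reached 1.05 and 1.04 under other scalings. Its other probe had 0.99 and 1.30, the latter past 2-fold. In M1 BMDMs its ratio was -5.46, or -6.73 by the other probe. Its direction was thus opposite to that of DC-STAMP and Ocstamp in the treated M2 BMDMs and the same in M1 BMDMs. Dock1 and Cd36, of cytoskeletal remodelling and lipid uptake, had ratios between -0.79 and -0.12 after the treatments and of -5.12 and -4.44 in M1 BMDMs. In all, 8 of 25 were lower and 7 higher in M1 BMDMs, near the 27.7% and 28.5% of all genes well above background, or 12 and 4 after the shift to the median.

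**Figure D5:**
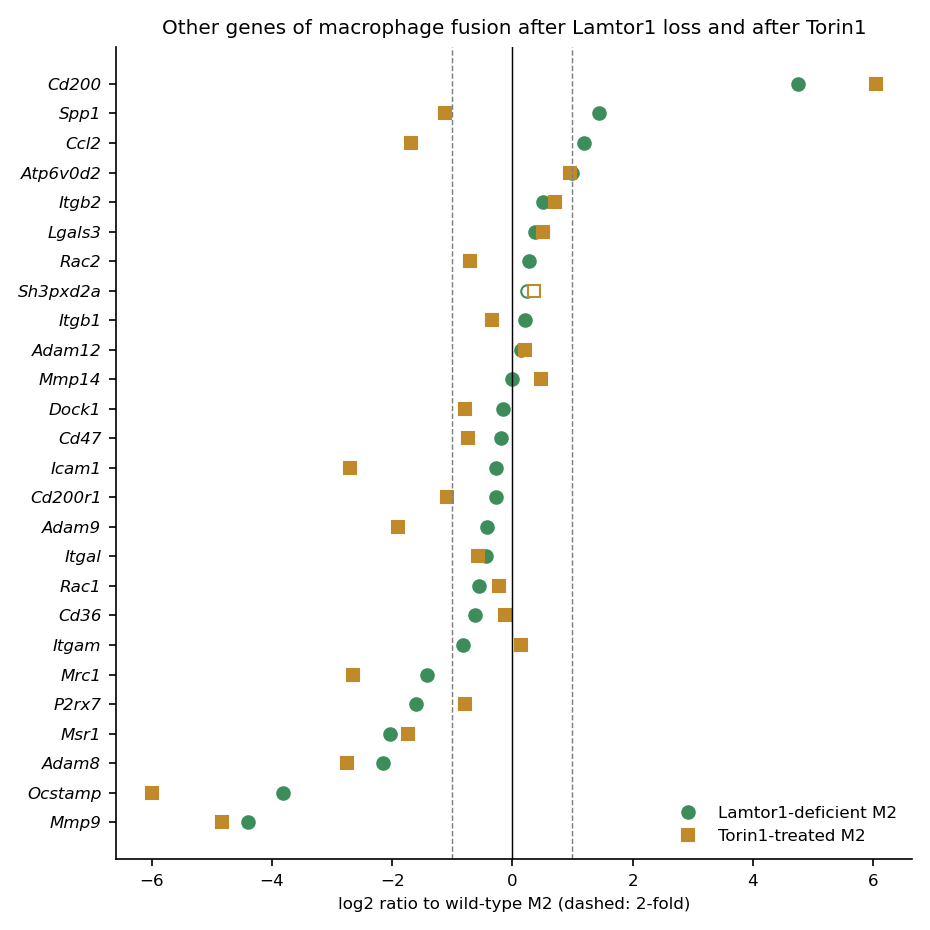
Log2 ratio of the normalized signal to M2 BMDMs of 26 other genes of macrophage fusion without Lamtor1 (circles) and with Torin1 (squares), 1 array each, sorted by the first, with dashed lines at 2-fold. Open symbols are not well above background on at least 1 of the arrays compared. Ocstamp and Mmp9 lie below -3.8 in both and Cd200 above 4.7 in both.

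Upstream of these genes, Il4ra, the IL-4 receptor α chain, gave 980 in M1, 1218 in M2, 606 in Lamtor1-deficient M2 and 289 in Torin1-treated M2 BMDMs (0.74, -0.86 and -1.74). Its other probe had log2 ratios of 1.68, -0.43 and -0.96, so its calls in M1 and with Torin1 depended on the probe. Stat6, the transcription factor of IL-4 signalling, had log2 ratios of 0.35, 0.06 and 0.08, although its 3 probes ranged from -0.51 to 0.87 with Torin1. In M1 BMDMs they ranged from 0.35 to 1.38, so its call there depended on the probe. Of 10 genes of IL-4 signalling, 0 were lower and 1, Il13ra1, was higher without Lamtor1 (2.18, from a signal of 45.7 in M2 BMDMs), where 10.5% of all genes well above background were lower and 10.5% higher. With Torin1, 3 were lower and 1 higher (4 and 0 after the shift to the median), against 15.2% and 15.1%, among them Socs1, a feedback inhibitor (-2.15), and Irs2, an adaptor of the receptor (1.15, or 0.91 after the shift to the median). In M1 BMDMs 2 were lower and 4 higher, against 27.7% and 28.5%.

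For each fusion gene but Cdh1, which has only a bound in M1 BMDMs, the 3 genes with the most similar log2 ratios over the 3 comparisons were sought by Euclidean distance among the 12991 genes with signals well above background on each array. Nearest to DC-STAMP were Gatm, an enzyme of creatine synthesis (distance 0.93), Stab2, a scavenger receptor for hyaluronan (1.76), and Lpl, lipoprotein lipase (1.93). The nearest genes were closer for the others, at 0.14 for Trem2 (Tcof1), 0.07 for Tyrobp (Suz12), 0.10 for Cd9 (Tmem62), 0.10 for Cd81 (Cyfip1), 0.09 for Cd44 (Fzd5) and 0.06 for Sirpa (Zfp119a). No fusion gene was among the nearest 3 of another.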

How the data were processed

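RNA of 4 BMDM cultures was labelled with Cy3 and hybridized to Agilent 8x60K mouse arrays in 1 colour. The authors deposited scanner files with spot intensities, made by Feature Extraction (version 10.7.3.1 per the file headers, 10.5.1.1 in the submitters' processing notes), and a table of the same processed signals, which differed by at most 0.497%. The deposited intensity is background-subtracted and not normalized between arrays. As in the study's methods, values below 1 were raised to 1, each array was divided by its 75th percentile over non-control probes, and ratios to wild-type M2 were taken on the log2 scale. Control spots and 170 to 226 outlier spots per array were left out, spots of a probe were averaged, and a gene was represented by its brightest probe, by the average of its scaled log2 values on all 4 arrays. Lists were counted over genes well above background on at least 1 of the arrays compared. A gene was called lower or higher at 2-fold. "At least" marks a bound against the lowest signal well above background. The number of arrays limits the precision. Columns with no known sample numbered 0.

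The fusion genes, the lists and the alternatives were chosen with earlier results of these data known. The lists were fusion partners, IL-4 signalling, DAP12 signalling, cadherins and catenins, tetraspanins and partners, CD44 and hyaluronan, SIRPα and CD47, osteoclast genes, M2 genes, and markers of macrophages, fibroblasts, neutrophils, lymphocytes, epithelial cells, and dendritic and Langerhans cells. The text names every fusion gene, up to 6 genes per list and comparison with the largest change past 2-fold and well above background on both arrays, set partners (Cd47, Ocstamp, Ctnnb1, Ptgfrn, Igsf8, Spp1, Il4ra, Stat6), the nearest 3 genes (not for Cdh1, which was dim in M1) and Lamtor1. Adam9, Jup, Twist1 and marker genes, and Mmp9 and Cd207 where dim, were named after their values were seen. Some genes that the rule selects are not reported here.

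Alternatives were a shift to the median, quantile normalization, a percentile taken only over probes above background everywhere, normexp (offset 50) on mean and background signals, 2 filters on dim probes, outlier spots kept, the mean of all probes of a gene, the series table and a 3-fold threshold. The procedure was tested on simulated data for Lamtor1-deficient against wild-type M2 over 55676 probes, where 200 of 200 probes changed 4-fold were recovered and 0 unchanged ones were called. The changed probes were drawn from those with signals above 200, and dim and bright probes received the same noise. The simulation therefore does not cover signals near background. Normexp was run in limma 3.58.1 (R 4.3.3), all else in Python 3.11.15 (pandas 2.3.3, NumPy 2.4.6), with plots by matplotlib 3.10.9. Probe positions came with the array annotation and refer to mm9.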

Additional observations from a re-analysis of the deposited data

Results flagged for a closer look

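The genes given here are those of the fusion, signalling, osteoclast and M2 lists that were past 2-fold in opposite directions without Lamtor1 and with Torin1. These opposite directions were not tested, since each rests on 1 array. Ccl2, a monocyte chemokine needed for giant cell formation, had log2 ratios to M2 BMDMs of 1.20 without Lamtor1 and -1.69 with Torin1, from signals of 9871 in M2, 20432 without Lamtor1 and 2416 with Torin1. Spp1, for osteopontin, a ligand of CD44, had ratios of 1.45 and -1.12, from signals of 20489, 50302 and 7432. Ccl17, a chemokine induced by IL-4, had ratios of 2.61 and -3.65 (-2.65 with normexp), from signals of 881, 4845 and 55.4. None of the 8 fusion genes differed in this way.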

How the results depend on the processing

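No paired analysis was possible because each group was 1 array, which also left no array that could be omitted. Under the alternatives, 13 ratios of the fusion genes differed in sign from the main value and 10 lay on the other side of 2-fold. Only Cd44 in M1 BMDMs was past 2-fold and changed direction, to -0.26 with the mean of all its probes, which contradict each other. The number of fusion genes higher in M1 BMDMs was 1, and 0 with the median shift, the mean of all probes or a 3-fold threshold. Their median there was -1.18, and -1.997 with the median shift, -1.46 with quantile normalization, -0.82 with normexp and -0.74 with probes well above background on both arrays, a filter that left no value for Cdh1. The number lower there was 4, 6 with the median shift, 5 with quantile normalization, and 3 with normexp, without Cdh1. With Torin1, the number higher was 1, and 0 with the median shift, quantile normalization or 3-fold. The number lower was 2, 1 at 3-fold, and 3 with the median shift or quantile normalization, where Cdh1 stood at -1.20 and -1.03. The median was 0.02, and -0.22 with the median shift and -0.40 with quantile normalization. For Lamtor1 loss it was -0.22, and -0.43 with quantile normalization. Over all genes, normexp called 983 lower and 1086 higher without Lamtor1 in place of 2069 and 2101, and 1703 and 1404 with Torin1 in place of 2775 and 3390. In M1 BMDMs normexp called 3412 lower and 6252 higher of all genes in place of 4539 and 7260. Quantile normalization called 5651 and 4443 of all genes in M1 BMDMs, and 3064 and 2639 with Torin1. The cause of these shifts was not tested. The number of genes of all lists past 2-fold stayed within 1.5 times its main value under every alternative run for it. Signals near background, as for Cdh1 without Lamtor1 and the upstream Cd44 probes, limit the size of their ratios.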

Other observations

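Of 8 genes around CD44 and hyaluronan well above background, 6 were past 2-fold higher and 0 lower in M1 BMDMs, where 28.5% of all such genes were higher, or 4 and 1 after the shift to the median. Without Lamtor1, 3 of 7 were higher and 0 lower, against 10.5% higher of all such genes. Hyal1, a hyaluronidase, gave 3541 in M1, 210 in M2, 1164 in Lamtor1-deficient M2 and 348 in Torin1-treated M2 BMDMs, log2 ratios of 5.13, 2.62 and 1.07. Ezr, for ezrin, which links CD44 to actin, had ratios of 1.33, 1.02 and 0.02, and without Lamtor1 0.95 with quantile normalization. With Torin1, 1 of 8 was lower (Spp1) and 1 higher (Hyal1, 0.82 after the shift to the median), against 15.2% and 15.1%.

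Of 11 genes of osteoclasts, the fusing cells of bone, that were well above background, 4 were lower and 2 higher without Lamtor1 (4 and 1 with quantile normalization, 4 and 3 after the shift to the median), and 4 were lower and 3 higher with Torin1 (4 and 2 after the shift to the median, 4 and 4 with the percentile over probes well above background). The shares of all such genes were 10.5% in each direction without Lamtor1, and 15.2% lower and 15.1% higher with Torin1. Ocstamp, Mmp9 and Atp6v0d2 also stand in the list of other fusion genes, and Ocstamp and Mmp9 were among the lower genes after both treatments. Acp5, for tartrate-resistant acid phosphatase, gave 69852 in M2, 73902 without Lamtor1 and 4208 with Torin1, ratios of 0.23 and -3.71. Itgb3, for the integrin β3 chain, was higher after both (2.01 and 1.86) by its brightest probe, and its other probe gave 0.28 and 0.85. Car2, for carbonic anhydrase 2, was lower without Lamtor1 (-2.29) and had a ratio of -0.40 with Torin1. Ctsk, for cathepsin K, had ratios of 0.03 and 1.59. In M1 BMDMs 6 of 11 were lower and 1 higher, against 27.7% and 28.5%, or 6 and 0 after the shift to the median.

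Of 8 M2 genes, 5 were lower and 2 higher without Lamtor1, and 5 were lower and 0 higher with Torin1, against 10.5% of all genes well above background in each direction, and 15.2% and 15.1%. Chi3l3, a chitinase-like protein of M2 cells, had log2 ratios of 0.22 and 0.22. In M1 BMDMs 5 of 7 were lower and 2 higher, against 27.7% and 28.5%, or 5 and 1 after the shift to the median, and Chi3l3 stood at -12.25. The summed normalized level of 7 macrophage markers was 404 in M1, 690.4 in M2, 468 in Lamtor1-deficient M2 and 543 in Torin1-treated M2 BMDMs, and that of 6 lymphocyte markers was 4.11, 2.69, 2.42 and 2.00. Single genes carried most of these sums. The brightest probe of Csf1r gave 485 in M2 and 402 in Torin1-treated M2 BMDMs, and Cd3e gave 2.13 in M2 BMDMs.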
